A study of Mus musculus with 4 samples.

Results

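The transcripts of 33 enzymes of central carbon metabolism were followed through 4 myeloid populations of the mouse large intestine. They are the enzymes of glycolysis and lactate formation, of the pentose phosphate pathway, and of pyruvate dehydrogenase and the tricarboxylic acid (TCA) cycle. They were taken as a list of gene names with no cut on a measured value. Earlier results of these data were known when the list was chosen. A probe set, the group of short probes that reports on a transcript, was used if the platform's probe table paired it with a single gene and that gene was on the list. By this rule 29 enzymes were read by 60 probe sets, out of 12394 genes on an array of 22690 probe sets. Hk3, Gpi1, Eno1 and G6pdx had no such probe set and were not analysed here.

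All cells came from the lamina propria, the connective tissue below the gut epithelium, of C57BL/6J mice, and no treatment or gene alteration is named. The CX3CR1high macrophages carried CD11c, CD11b and much of the chemokine receptor CX3CR1, and the CX3CR1- cells carried CD11c and CD11b but no CX3CR1. The CD11b+ cells lacked CD11c, and the DCs (dendritic cells) had a high level of CD11c and no CD11b. Sample titles also call the CX3CR1- cells a DC population, the CD11b+ cells Mf and the DCs CD103. Each population was measured on 1 Affymetrix 3' array, so no test, error or p-value can be given, and the labels give no age, sex or number of mice. In bulk RNA of this kind, fewer cells of a type and less RNA per cell cannot be told apart.

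Glycolysis splits glucose into pyruvate in the cytosol and yields some ATP, and lactate dehydrogenase can turn the pyruvate into lactate. The pentose phosphate pathway branches off after the first step of glycolysis and supplies NADPH and ribose. The TCA cycle oxidises pyruvate carbon in mitochondria and feeds electrons to the respiratory chain. Macrophages and dendritic cells are known to shift glucose towards lactate when stimulated, and NADPH serves both oxidant production and lipid synthesis in phagocytes.

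Each value is a signal on the linear intensity scale, and the authors' scaling gave all arrays 1 common trimmed mean. Signals of different probe sets cannot be set against each other, so all comparisons run across arrays within a probe set. A gene with several probe sets is given by the one with the highest mean log2 signal, passing over sets that end in _x_at where there is a choice. Signals below 103, the median of all arrays pooled, were raised to that floor, and every enzyme's chosen probe set was above it on all 4 arrays. A ratio of at least 2-fold (1 on the log2 scale) is called higher or lower. As a yardstick without replicates, probe sets sharing a gene were compared, and the SD of their log2 ratios was 0.33 for CX3CR1high macrophages over CD11b+ cells, 0.39 over DCs and 0.42 over CX3CR1- cells. For CX3CR1- cells it was 0.52 over DCs and 0.31 over CD11b+ cells, and it was 0.46 for CD11b+ cells over DCs. Probe sets of a gene were read on the same arrays, so this SD holds no variation between mice or cell sorts.

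The genes of the surface proteins used to define the populations did not all follow the labels. Itgax, the gene of CD11c, read 1826 in CX3CR1high macrophages, 8412 in CX3CR1- cells, 1864 in CD11b+ cells and 5893 in DCs, so the CD11b+ cells, labelled as lacking CD11c, had as much as the CX3CR1high macrophages labelled as carrying it. Itgam, the gene of CD11b, was under the floor in DCs alone (45.9). Cx3cr1 read 1499 in CX3CR1high macrophages, 291 in CX3CR1- cells, 638 in CD11b+ cells and 65.2 in DCs. All 8 macrophage markers were above the floor in CX3CR1high macrophages, CX3CR1- cells and CD11b+ cells, and 6 of them in DCs, where Mertk and Cx3cr1 were below the floor. Their summed signal was 112865 in CX3CR1high macrophages, 54254.5 in CX3CR1- cells, 69664 in CD11b+ cells and 12317 in DCs. All 7 DC markers were above the floor in DCs, 6 in CX3CR1- cells, 4 in CX3CR1high macrophages and 3 in CD11b+ cells. DC markers summed to 2787 in CX3CR1high macrophages, 19211 in CX3CR1- cells, 2573 in CD11b+ cells and 24863 in DCs. Epithelial markers summed to 18174 in CX3CR1high macrophages, against 7508 in CX3CR1- cells, 3097 in CD11b+ cells and 4527 in DCs, with all 11 measured members above the floor in the first population and 9 in each other one. Fibroblast markers summed to 16987 in CX3CR1high macrophages, 22781 in CX3CR1- cells, 64987 in CD11b+ cells and 5199 in DCs. At least 7 of 8 fibroblast markers were above the floor in CX3CR1high macrophages, CX3CR1- cells and CD11b+ cells, and 6 in DCs. Monocyte markers, of which 5 were measured, summed to 3545 in CX3CR1high macrophages, 21069 in CX3CR1- cells, 33309.5 in CD11b+ cells and 12227 in DCs. Much of this was S100a4, and without it the other 4 summed to 1392 in CX3CR1high macrophages, 1311 in CX3CR1- cells, 16769 in CD11b+ cells and 720 in DCs. Neutrophil markers summed to 2942 in CX3CR1high macrophages, 1298 in CX3CR1- cells, 9685 in CD11b+ cells and 226 in DCs, where all 6 were under the floor. The part of epithelial, fibroblast, monocyte and neutrophil RNA in the enzyme signals, which every cell type makes, was not tested.

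More of the enzymes had their highest signal in DCs than in any other population. Of the 29 enzymes, 3 were highest in CX3CR1high macrophages, 5 in CX3CR1- cells, 6 in CD11b+ cells and 15 in DCs. Of all 7848 genes above the floor on any array, 25.9% were highest in CX3CR1high macrophages, 18.3% in CX3CR1- cells, 23.4% in CD11b+ cells and 32.5% in DCs. DCs also held the lowest signal of 8 enzymes, while 38.2% of all genes were lowest there. Lowest signals fell in CX3CR1high macrophages for 9 enzymes (24.4% of all genes), in CX3CR1- cells for 6 (19.7%) and in CD11b+ cells for 6 (17.6%). Between the highest and the lowest array, 16 enzymes differed at least 2-fold and 4 at least 4-fold, with a median of 2.05-fold. Among all genes 41.3% differed at least 2-fold and 11.7% at least 4-fold, with a median of 1.82-fold. The 4 enzymes with the widest range were the cytosolic isocitrate dehydrogenase Idh1, the aldolase Aldoc, the phosphofructokinase Pfkp and the succinyl-CoA ligase subunit Suclg1.

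**Figure D1:**
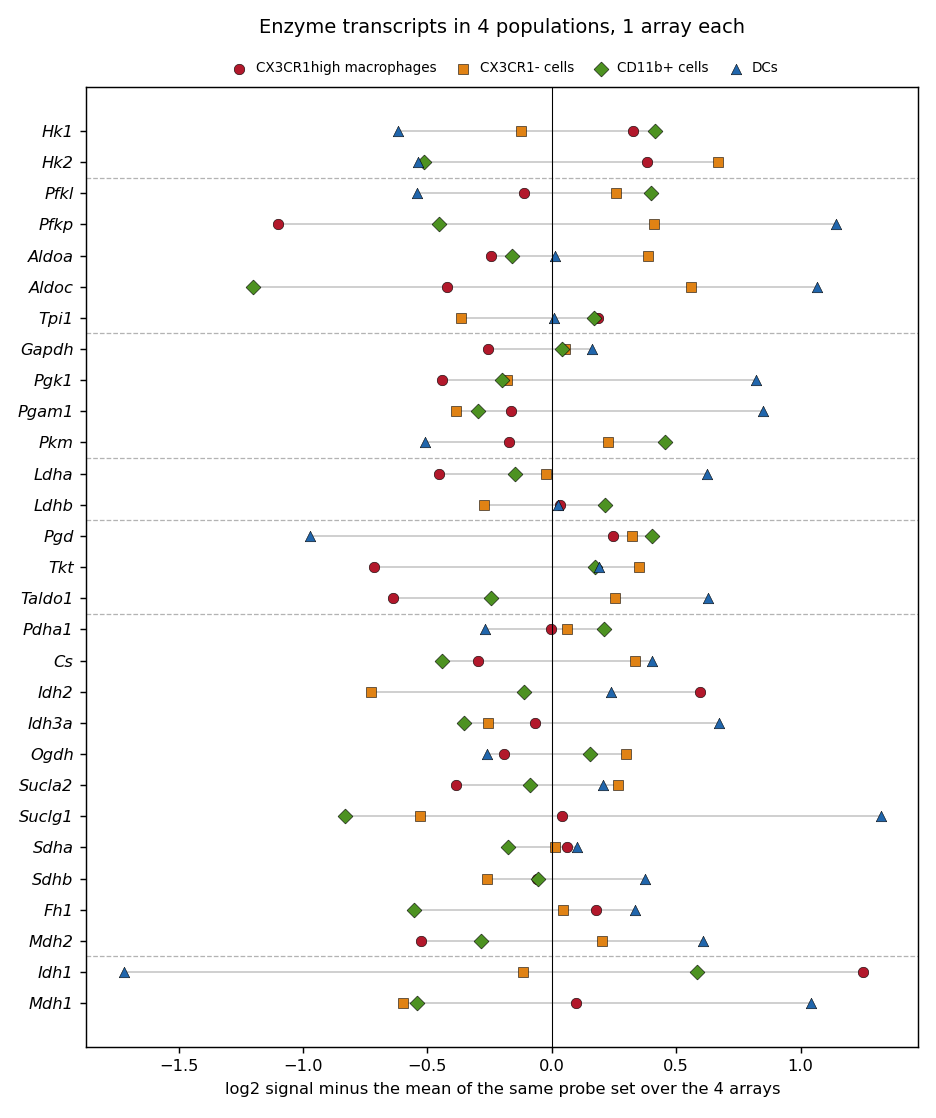
Signal of the 29 measured enzymes in the 4 populations, 1 array each, as log2 signal minus the mean of the same probe set over the 4 arrays (x axis), with enzymes grouped by step between dashed lines (from the top: hexokinases, upper glycolysis, lower glycolysis, lactate dehydrogenases, pentose phosphate pathway, pyruvate dehydrogenase and TCA cycle, cytosolic partners). Blue triangles (DCs) lie at the right-hand end for 15 enzymes and at the left-hand end for 8.

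Set against CD11b+ cells, no chosen probe set reached 2-fold in CX3CR1high macrophages. All 29 ratios lay between -0.89 (the transketolase Tkt) and 0.90 (the hexokinase Hk2) on the log2 scale, with a median of -0.09. Further probe sets of 2 enzymes did pass it, Idh1 at 2.38-fold higher and Pgk1 at 2.09-fold lower, while their chosen sets gave 1.59-fold higher and 1.18-fold lower. The median of all 7513 genes with a ratio was -0.02, and 4.66% of them were called higher and 5.83% lower. The median was -0.18 for 13 glycolysis enzymes, -0.39 for 3 pentose phosphate enzymes and 0.24 for 13 enzymes of the TCA cycle, its entry and the cytosolic partners.

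Against CX3CR1- cells, CX3CR1high macrophages had 2 enzymes higher and 2 lower. Idh1 and the mitochondrial Idh2 were higher, and Pfkp and Tkt were lower. Over all genes 8.56% were at least 2-fold higher and 6.54% lower. On the chosen sets 2 of 29 enzymes make 6.90% in each direction, so the counts are near this background. Further sets of enzymes without a call also passed 2-fold, Pgk1 at 2.32-fold lower, Mdh2 at 2.09-fold lower and Gapdh at 2.55-fold higher. The median log2 ratio was -0.26 for the enzymes and 0.02 for all genes.

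Against DCs, CX3CR1high macrophages had 2 enzymes higher (Idh1 and the 6-phosphogluconate dehydrogenase Pgd) and 8 lower. The 8 were Pfkp, Aldoc, Suclg1, the transaldolase Taldo1, the phosphoglycerate kinase Pgk1, the mitochondrial malate dehydrogenase Mdh2, the lactate dehydrogenase Ldha and the phosphoglycerate mutase Pgam1. Of all 7481 genes with a ratio, 10.2% were called lower and 17.4% higher, so the enzymes had more lower calls (27.6%) and fewer higher calls (6.90%) than the array as a whole. The median log2 ratio was -0.42 for the enzymes and 0.02 for all genes, and 18 enzymes had a ratio below 1, against 49.3% of all genes. By pathway, 5 of 13 glycolysis enzymes were lower and 0 higher, 1 of 3 pentose phosphate enzymes was lower and 1 higher, and 2 of 13 enzymes of the TCA group were lower and 1 higher. When each array was scaled to the same median, the median of all genes moved to -0.27 and that of the enzymes to -0.73, and 1 enzyme was higher and 12 lower, against 13.3% higher and 18.3% lower among all genes.

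**Figure D2:**
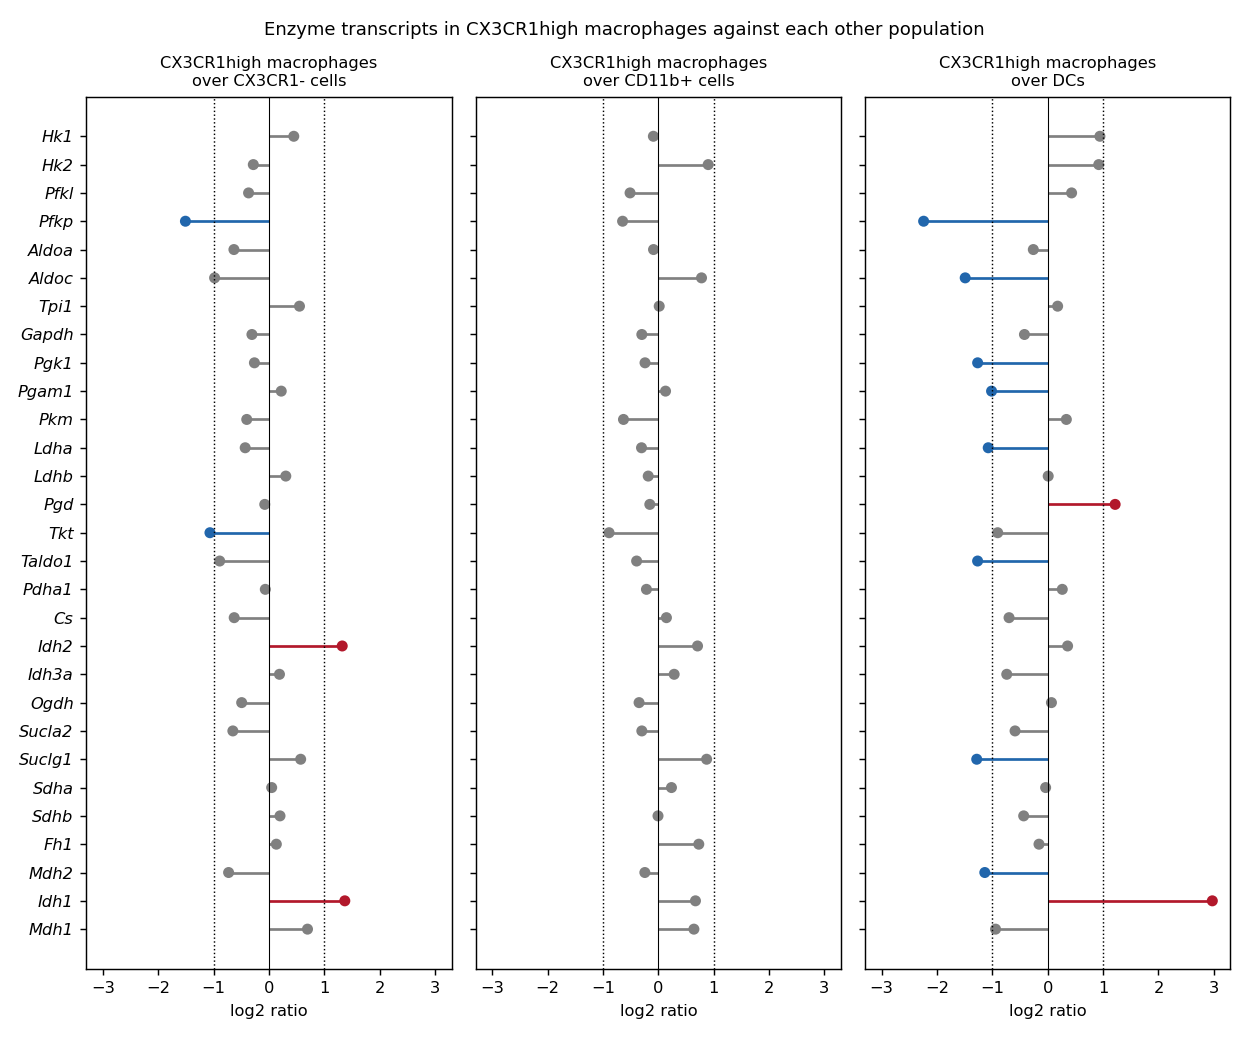
Log2 ratio of each of the 29 enzymes in CX3CR1high macrophages over CX3CR1- cells, CD11b+ cells and DCs (x axis, 1 array per population, no error can be given), with dotted lines at 2-fold. Coloured points pass 2-fold (red higher, blue lower), of which there are 4 over CX3CR1- cells, 0 over CD11b+ cells and 10 over DCs.

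The comparisons of CX3CR1- cells and CD11b+ cells with DCs share the DC array and are not independent of the one above. CX3CR1- cells had 3 enzymes (10.3%) higher than DCs and 4 (13.8%) lower, where 13.7% and 8.7% of all genes were so, which is near this background. The higher enzymes were Idh1, Pgd and Hk2, and the lower ones Suclg1, Mdh1, Pgam1 and Pgk1. CD11b+ cells had 3 (10.3%) higher and 7 (24.1%) lower, against 17% and 10.4% of all genes. The hexokinase Hk1 joined Idh1 and Pgd above DCs, and Aldoc, Suclg1, Pfkp, Mdh1, Pgam1, Idh3a and Pgk1 were below them. Median log2 ratios of the enzymes were -0.29 for CX3CR1- cells and -0.29 for CD11b+ cells over DCs, with 0.04 and 0.07 for all genes. A ratio below 1 was seen for 18 enzymes in CX3CR1- cells over DCs, against 47.4% of all genes, and for 19 in CD11b+ cells over DCs, against 46.4%. When each array was scaled to the same median, 12 enzymes were at least 2-fold lower and 2 higher in CD11b+ cells than in DCs, where 18.1% of all genes were lower and 12.9% higher, with a median of -0.22. Between CX3CR1- cells and CD11b+ cells, 2 enzymes were higher (Aldoc and Hk2) and 0 lower, against 3.55% and 5.19% of all genes.

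**Figure D3:**
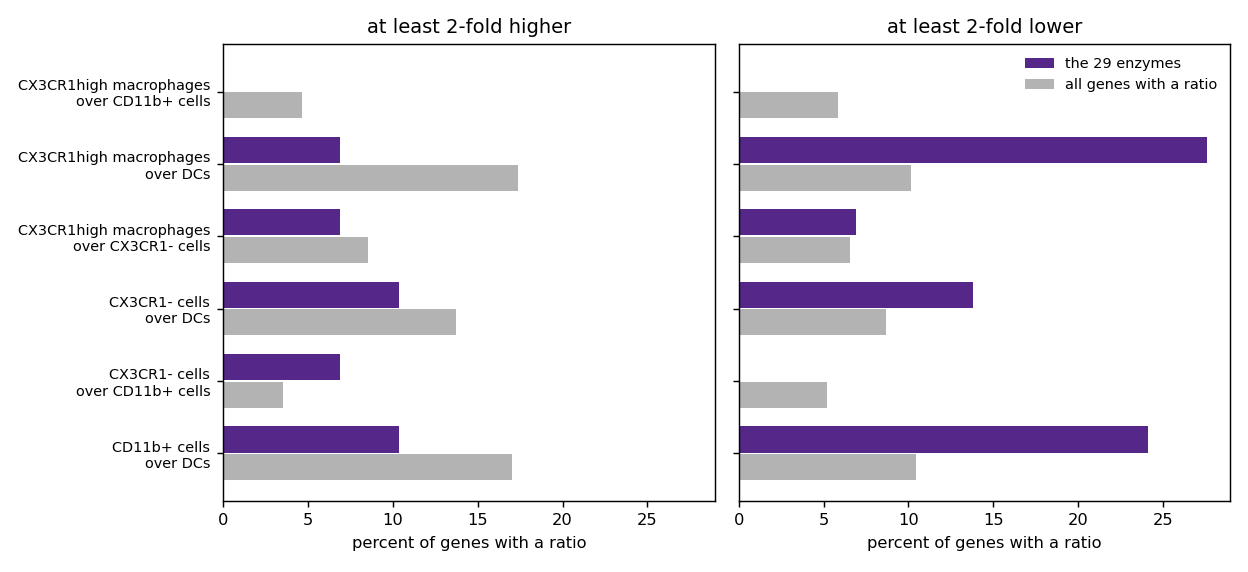
Percent of the 29 enzymes (purple) and of all genes with a ratio (grey) called higher (left) or lower (right) in each pair of populations, the first named over the second. The purple bar is longest for enzymes lower in CX3CR1high macrophages than in DCs (27.6%, against 10.2% of all genes).

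The array controls for RNA integrity differed between arrays, although the labels describe all RNA as little degraded. They read a transcript at both ends, and the quotient of 3' to 5' signal is larger where 5' ends are missing. It was 1.08 in CX3CR1high macrophages, 3.40 in CX3CR1- cells, 2.17 in CD11b+ cells and 0.791 in DCs for Gapdh. For Actb it was 1.68 in CX3CR1high macrophages, 2.76 in CX3CR1- cells, 3.18 in CD11b+ cells and 1.11 in DCs. The quotients were higher in CX3CR1- cells and CD11b+ cells than in CX3CR1high macrophages and DCs for both genes. The part of RNA integrity in the ratios of single enzymes was not tested.

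Gapdh, the glyceraldehyde-3-phosphate dehydrogenase of glycolysis, is itself read by the array's control sets, which lie at the 3' end, the middle and the 5' end of its transcript. At the 3' end its signal was 9919 in CX3CR1high macrophages, 12282 in CX3CR1- cells, 12199 in CD11b+ cells and 13270.5 in DCs. The middle set gave 7607 in CX3CR1high macrophages, 5925 in CX3CR1- cells, 6511 in CD11b+ cells and 12216 in DCs. At the 5' end it was 9218 in CX3CR1high macrophages, 3608 in CX3CR1- cells, 5628 in CD11b+ cells and 16776 in DCs. The 3' signals lay within 1.34-fold of each other, while the 5' signals put DCs 4.65-fold above CX3CR1- cells. For CX3CR1high macrophages over CX3CR1- cells the log2 ratio was -0.31 with the 3' set, 0.36 with the middle set and 1.35 with the 5' set. The direction of Gapdh in this pair thus depended on where in the transcript the probes lay.

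**Figure D4:**
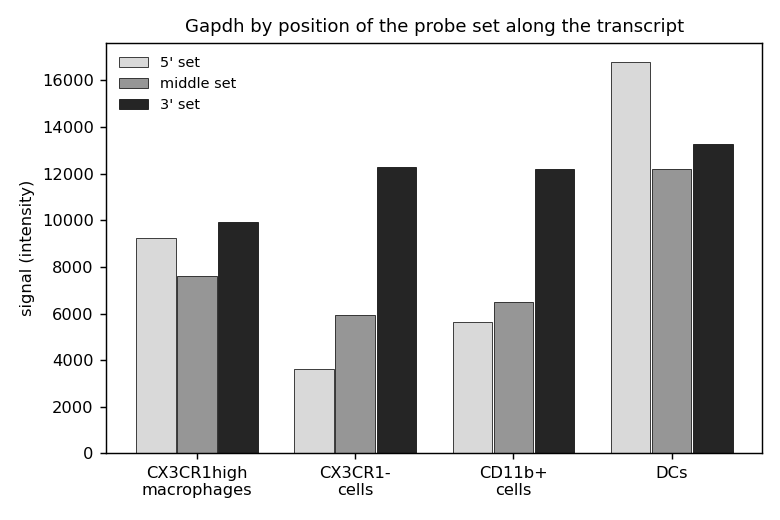
Signal (linear intensity, axis from 0) of the 3 Gapdh control probe sets in each population, 1 array each, with bars for the 5', middle and 3' set from left to right. The 3' bars stay between 9919 and 13271, and the 5' bars run between 3608 (CX3CR1- cells) and 16776 (DCs).

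Hexokinases trap glucose in the cell by phosphorylating it. Hk2, the inducible form of many tissues, had a signal of 5193 in CX3CR1high macrophages, 6320.01 in CX3CR1- cells, 2783 in CD11b+ cells and 2741 in DCs. Both CD11c+ CD11b+ populations were thus high and the other pair low, with 2.27-fold more in CX3CR1- cells than in CD11b+ cells and 1.87-fold more in CX3CR1high macrophages than in CD11b+ cells. Hk1, the widely expressed form, stood at 899 in CX3CR1high macrophages, 659 in CX3CR1- cells, 957 in CD11b+ cells and 468 in DCs. Only CD11b+ cells were at least 2-fold above DCs for Hk1 (2.05-fold), a ratio that fell below 2-fold in 4 of 7 alternative settings. A further Hk1 probe set was under the floor on all arrays.

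Phosphofructokinase makes the committed step of glycolysis, and its isoforms went different ways. Pfkp, the platelet-type subunit, gave 1005 in CX3CR1high macrophages, 2861 in CX3CR1- cells, 1573 in CD11b+ cells and 4749.9 in DCs. DCs were highest and CX3CR1high macrophages lowest, 4.73-fold below DCs and 2.85-fold below CX3CR1- cells. A further Pfkp probe set was above the floor in DCs alone (232), at 26.2 in CX3CR1high macrophages, 29.5 in CX3CR1- cells and 42.8 in CD11b+ cells. Pfkl, the liver-type subunit, had signals of 253 in CX3CR1high macrophages, 327 in CX3CR1- cells, 361 in CD11b+ cells and 188 in DCs. Its order was the opposite of that of Pfkp at the DC end, with the lowest signal there, but no pair reached 2-fold.

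Aldolases split the phosphorylated fructose into trioses. Aldoc, an isoform best known from brain, showed 219.8 in CX3CR1high macrophages, 434 in CX3CR1- cells, 128 in CD11b+ cells and 617 in DCs. It was 2.81-fold lower in CX3CR1high macrophages and 4.82-fold lower in CD11b+ cells than in DCs, and its lowest signals were close to the floor. With the floor at the 75th percentile (a signal of 453) both log2 ratios shrank to -0.45, and no 2-fold difference was left. The other Aldoc probe set stayed under the floor on every array. Aldoa, the common isoform, had signals between 4645 and 7204, lowest in CX3CR1high macrophages and highest in CX3CR1- cells, and all 4 of its probe sets placed these populations in the same way. Tpi1, which interconverts the trioses, stayed between 1498 and 2194, within 1.46-fold.

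In lower glycolysis, Pgk1 and Pgam1 had high signals in DCs and Pkm a low one. Pgk1, which makes the first ATP of this stretch, had 3520.4 in CX3CR1high macrophages, 4225 in CX3CR1- cells, 4159 in CD11b+ cells and 8461 in DCs. Pgam1, the next enzyme, had 1169.5 in CX3CR1high macrophages, 1003 in CX3CR1- cells, 1069 in CD11b+ cells and 2361 in DCs. Both were at least 2-fold lower in each of the 3 other populations than in DCs, and on the chosen sets the 3 others lay within 1.20-fold of each other for Pgk1 and 1.17-fold for Pgam1. All 3 Pgk1 probe sets were highest in DCs, but the further sets were under the limit in CX3CR1- cells (1.41-fold and 1.53-fold lower) and in CD11b+ cells (1.52-fold and 1.70-fold lower). In those sets the 3 populations other than DCs spread over 1.48-fold and 2.32-fold. Pkm, the pyruvate kinase of the last step, read 2269 in CX3CR1high macrophages, 2998 in CX3CR1- cells, 3510.4 in CD11b+ cells and 1797 in DCs. It was lowest in DCs and highest in CD11b+ cells, with 1.95-fold between them, just under the limit.

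Ldha, whose enzyme favours the making of lactate, read 4919 in CX3CR1high macrophages, 6626 in CX3CR1- cells, 6073 in CD11b+ cells and 10356 in DCs. DCs were highest, 1.56-fold above CX3CR1- cells, and only CX3CR1high macrophages were over 2-fold lower (2.11-fold). Ldhb, which favours the return of lactate to pyruvate, was read differently by its 4 probe sets. The chosen set gave 225 in CX3CR1high macrophages, 182 in CX3CR1- cells, 256 in CD11b+ cells and 224 in DCs, with no pair over 2-fold. A further set gave 177 in CX3CR1high macrophages, 116 in CX3CR1- cells, 293 in CD11b+ cells and 51.7 in DCs. In this set and the remaining pair CD11b+ cells were highest and DCs lowest and under the floor, so the level of Ldhb in DCs is uncertain.

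Of the pentose phosphate enzymes, Pgd makes NADPH in the oxidative branch. Its chosen probe set gave 1564 in CX3CR1high macrophages, 1649 in CX3CR1- cells, 1740.4 in CD11b+ cells and 672 in DCs. DCs were low and the 3 others lay within 1.11-fold of each other, with 2.33-fold, 2.45-fold and 2.59-fold over DCs for CX3CR1high macrophages, CX3CR1- cells and CD11b+ cells. The 3 further Pgd sets were lowest in DCs as well, at least 2.39-fold below each other population.

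Tkt and Taldo1 shuffle carbon between sugars in the non-oxidative branch. Tkt stood at 1731 in CX3CR1high macrophages, 3624 in CX3CR1- cells, 3208 in CD11b+ cells and 3237 in DCs. CX3CR1high macrophages alone were low, 2.09-fold below CX3CR1- cells, and the 3 others lay within 1.13-fold. The other Tkt set had the same lowest population, but at 1.64-fold below CX3CR1- cells it did not reach the limit. Taldo1 read 4024 in CX3CR1high macrophages, 7459 in CX3CR1- cells, 5282 in CD11b+ cells and 9676 in DCs. It was 2.40-fold lower in CX3CR1high macrophages than in DCs, and CX3CR1- cells and CD11b+ cells lay between.

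At the entry to the TCA cycle, Pdha1, the catalytic subunit of pyruvate dehydrogenase, varied little. Its chosen set lay between 688 in DCs and 959 in CD11b+ cells. Its other, weaker set had DCs highest (321) and CX3CR1high macrophages lowest (177), so the sets disagree on the direction. Cs, citrate synthase, had 1919 in CX3CR1high macrophages, 2967 in CX3CR1- cells, 1735 in CD11b+ cells and 3114 in DCs. CX3CR1- cells and DCs were above the other pair, with 1.79-fold between the highest and the lowest array. A further Cs set did pass the limit, 2.21-fold lower in CX3CR1high macrophages and 2.19-fold lower in CD11b+ cells than in DCs.

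The isocitrate dehydrogenases differed from each other. Idh1, the NADPH-making enzyme of the cytosol, had 1596 in CX3CR1high macrophages, 618 in CX3CR1- cells, 1003 in CD11b+ cells and 203 in DCs. The 4 populations were spread over a 7.85-fold range, and CX3CR1high macrophages were also 2.58-fold above CX3CR1- cells and 1.59-fold above CD11b+ cells. The second Idh1 set had its highest signal in CX3CR1high macrophages (762) and its lowest in DCs (118) too. Both sets are of a type that can match more than 1 transcript. With the floor at the 75th percentile the log2 ratio of CX3CR1- cells over DCs was 0.45, and the call was lost.

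Idh2, the mitochondrial NADPH-making form, read 849 in CX3CR1high macrophages, 339.6 in CX3CR1- cells, 520.01 in CD11b+ cells and 662 in DCs. It was highest in CX3CR1high macrophages and 2.50-fold above CX3CR1- cells, its lowest population. Idh3a, a subunit of the NAD-dependent enzyme of the cycle, had 513 in CX3CR1high macrophages, 449.9 in CX3CR1- cells, 421 in CD11b+ cells and 856 in DCs. DCs were highest, and only CD11b+ cells were over 2-fold below them (2.04-fold). Its further sets were under the floor on all arrays. The call of Idh3a was lost under 3 of 7 alternative settings.

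Suclg1, the subunit that both forms of succinyl-CoA ligase share, was higher in DCs than in all others. It had 696 in CX3CR1high macrophages, 468 in CX3CR1- cells, 380.5 in CD11b+ cells and 1692 in DCs. It was 2.43-fold lower in CX3CR1high macrophages, 3.61-fold lower in CX3CR1- cells and 4.45-fold lower in CD11b+ cells than in DCs, by 1 probe set. Sucla2, the partner subunit of the ATP-making form, did not share this order, with 1046 in CX3CR1high macrophages, 1643 in CX3CR1- cells, 1286 in CD11b+ cells and 1573 in DCs. Ogdh, which makes the succinyl-CoA, lay between 598 in DCs and 882 in CX3CR1- cells.

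The succinate dehydrogenase subunits also belong to the respiratory chain. Sdha lay between 1574 and 1903, the smallest range of the 29 enzymes on the chosen sets (1.21-fold), and Sdhb between 2074 and 3215. Fh1, fumarase, was lowest in CD11b+ cells (867) and between 1313 and 1605 in the other populations.

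The malate dehydrogenases work as a pair across the mitochondrial membrane and carry reducing power between the compartments. Mdh2, the mitochondrial enzyme, had 4326 in CX3CR1high macrophages, 7173 in CX3CR1- cells, 5122 in CD11b+ cells and 9508 in DCs. DCs were highest, 2.20-fold above CX3CR1high macrophages, and a further set gave 3.57-fold. Mdh1, the cytosolic enzyme, had 1629 in CX3CR1high macrophages, 1006 in CX3CR1- cells, 1044 in CD11b+ cells and 3128 in DCs. On the chosen set of Mdh1, DCs were high and CX3CR1- cells and CD11b+ cells low. Log2 ratios over DCs were -1.64 for CX3CR1- cells, -1.58 for CD11b+ cells and -0.94 for CX3CR1high macrophages. Averaged over all 4 Mdh1 sets, 1 of them under the floor, the log2 ratio of CX3CR1- cells over DCs was -0.68. Further Mdh1 sets were also highest in DCs, except 1 that lay far below the floor on all arrays. In those above the floor, CX3CR1- cells lay above CX3CR1high macrophages (3372 against 2691, and 1806 against 1651). There CX3CR1- cells were 1.65-fold and 2.36-fold below DCs, and CX3CR1high macrophages 2.06-fold and 2.58-fold below them.

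**Figure D5:**
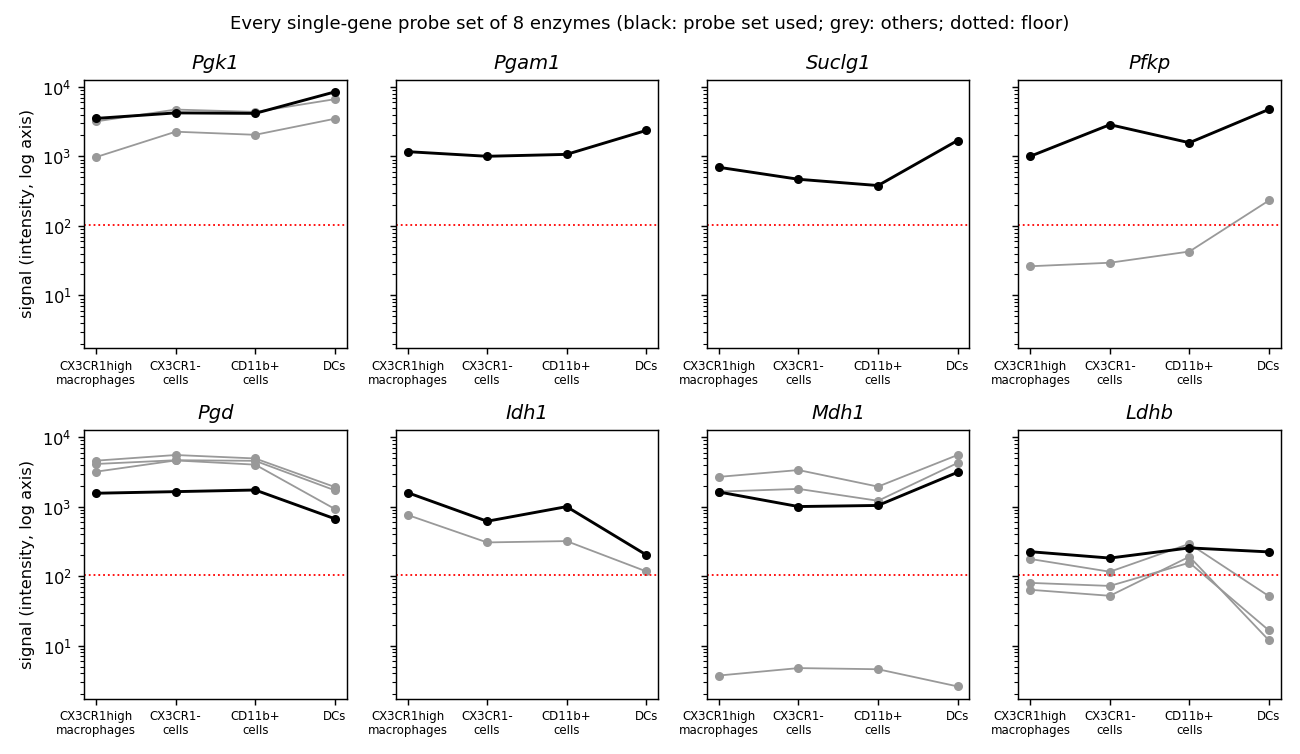
Signals of all single-gene probe sets (linear intensity on a log axis) of 8 enzymes in the 4 populations, 1 array each, with the chosen set in black, further sets in grey and the floor of 103 dotted. DCs are highest in every set of Pgk1 and Pfkp and in the only set of Pgam1 and of Suclg1. They are lowest in every set of Pgd and Idh1, while the sets of Ldhb disagree.

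Of the 60 probe sets, 51 were above the floor on all arrays, 4 on some and 5 on none. For enzymes called in CX3CR1high macrophages over DCs, 8 further sets had a ratio, and 8 differed at least 2-fold the same way. These sets were of Pgd, Pgk1, Pfkp, Mdh2 and Idh1, while Aldoc, Suclg1, Taldo1, Ldha and Pgam1 had no further set with a ratio. For CD11b+ cells over DCs 7 of 9 further sets did so, and for CX3CR1- cells over DCs 5 of 8. For CX3CR1high macrophages over CX3CR1- cells 1 of 2 did so, and 0 had the opposite sign in these pairs. Further sets of enzymes without a call were left out of these counts. Among them, a Cs set and the Mdh1 sets above the floor were over 2-fold lower in CX3CR1high macrophages than in DCs.

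Against all 3 other populations at once, Pgk1, Pgam1 and Suclg1 were at least 2-fold higher in DCs (4.13% of all genes were), and Pgd and Idh1 at least 2-fold lower (8.03%). No enzyme stood 2-fold above or below all others in CX3CR1high macrophages (2.93% and 0.841% of all genes did), in CX3CR1- cells (0.561% and 0.242%) or in CD11b+ cells (2.17% and 0.268%). The low count, 2 of 29 enzymes, is near the share of all genes, and the high count, 3 of 29, is above it. Of the 5 enzymes, only Suclg1 stayed at least 2-fold from each other population under every alternative setting. Pgk1 in CX3CR1- cells over DCs kept its call under 5 of 8 alternatives, and Pgam1 in CX3CR1high macrophages over DCs under 5 of 7. Chosen from these same values, the promoters of the 5 enzymes are shown only because the enzymes met this limit, 3 high and 2 low in the same array. Each is the window of 250 bases before to 50 after a transcript start, 5′ to 3′ on the gene's strand, from RefSeq on GRCm38.p6, and for Pgd and Idh1 it is the first of 2 windows. Capitals mark ACGTG and GCGTG on either strand, the core forms bound by hypoxia-inducible factors, which are known activators of glycolysis genes.
Pgk1, chrX:106186850-106187149, plus strand: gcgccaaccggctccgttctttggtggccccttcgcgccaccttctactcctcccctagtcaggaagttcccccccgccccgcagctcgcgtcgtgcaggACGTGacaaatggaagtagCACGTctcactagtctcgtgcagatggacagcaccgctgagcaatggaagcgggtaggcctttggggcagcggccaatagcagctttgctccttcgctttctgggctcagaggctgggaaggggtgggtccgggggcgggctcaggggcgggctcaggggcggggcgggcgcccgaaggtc
Pgam1, chr19:41911621-41911920, plus strand: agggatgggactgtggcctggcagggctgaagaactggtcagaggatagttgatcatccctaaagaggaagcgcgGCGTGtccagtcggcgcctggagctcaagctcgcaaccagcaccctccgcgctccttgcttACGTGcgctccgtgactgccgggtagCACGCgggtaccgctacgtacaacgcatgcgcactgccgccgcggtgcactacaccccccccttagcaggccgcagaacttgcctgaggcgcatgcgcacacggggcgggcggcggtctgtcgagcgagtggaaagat
Suclg1, chr6:73248255-73248554, plus strand: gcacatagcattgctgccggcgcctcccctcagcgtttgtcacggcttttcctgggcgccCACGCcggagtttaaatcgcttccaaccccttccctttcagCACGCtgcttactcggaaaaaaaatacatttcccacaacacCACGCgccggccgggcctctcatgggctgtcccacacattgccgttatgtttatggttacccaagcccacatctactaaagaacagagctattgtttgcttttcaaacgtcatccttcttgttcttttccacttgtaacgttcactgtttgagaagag
Pgd, chr4:149166656-149166955, minus strand: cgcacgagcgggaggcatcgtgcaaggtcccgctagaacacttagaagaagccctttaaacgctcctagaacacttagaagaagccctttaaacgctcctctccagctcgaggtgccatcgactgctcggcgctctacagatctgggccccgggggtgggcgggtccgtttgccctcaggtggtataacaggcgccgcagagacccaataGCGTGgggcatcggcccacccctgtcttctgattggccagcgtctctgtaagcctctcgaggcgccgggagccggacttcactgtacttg
Idh1, chr1:65186430-65186729, minus strand: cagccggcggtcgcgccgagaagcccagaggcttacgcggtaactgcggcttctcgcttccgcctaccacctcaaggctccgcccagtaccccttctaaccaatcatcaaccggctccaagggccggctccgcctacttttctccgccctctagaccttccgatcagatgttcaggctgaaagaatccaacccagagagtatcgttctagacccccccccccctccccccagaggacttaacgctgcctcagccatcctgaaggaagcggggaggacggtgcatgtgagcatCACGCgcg

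Pgk1 held ACGTG 2 times, Pgam1 held ACGTG once and GCGTG 2 times, Suclg1 held GCGTG 3 times, and Pgd and Idh1 held GCGTG once each in the windows shown. A match to these letters was thus present in the enzymes high in DCs and in those low there. A promoter window was listed for 28 of the 29 measured enzymes, in all 41 windows. ACGTG was found in 43.9% of the enzymes' windows and in 19.6% of all 32851 windows, and GCGTG in 63.4% and 32.4%. The motif CACGTG, which contains ACGTG, was in 9.76% and 7.15%. The enzymes' windows had a median GC content of 61.0%, against 52.7% over all windows, and the part of base composition in the motif shares was not tested.

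Other genes of the same pathways were counted in the same way, and their counts are to be read against the shares of all genes, which were 17.4% higher and 10.2% lower in CX3CR1high macrophages over DCs, 8.56% and 6.54% over CX3CR1- cells, and 4.66% and 5.83% over CD11b+ cells. Of 24 measured genes among the remaining pyruvate and TCA enzymes and carriers, 1 of 20 with a ratio was higher and 4 lower in CX3CR1high macrophages than in DCs. The lower ones included Mpc1, a subunit of the carrier that brings pyruvate into mitochondria, at 1549.6 in CX3CR1high macrophages, 1263 in CX3CR1- cells, 1185 in CD11b+ cells and 5033 in DCs. The others were the malic enzyme Me2 and the succinate dehydrogenase assembly factors Sdhaf2 and Sdhaf1 (2.88-fold, 2.28-fold and 2.24-fold lower). Acod1, which turns the cycle intermediate aconitate into itaconate in stimulated macrophages, had 1092 in CX3CR1high macrophages, 2819 in CX3CR1- cells, 3289 in CD11b+ cells and 99.6 in DCs. Acod1 was 3.01-fold lower in CX3CR1high macrophages than in CD11b+ cells and 2.58-fold lower than in CX3CR1- cells, and at least 10.6-fold higher than in DCs, where it was under the floor. Aco1, the cytosolic aconitase that is also an iron sensor, was 2.39-fold higher than in CD11b+ cells and 2.36-fold higher than in CX3CR1- cells.

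Among the carriers of glucose and lactate, Slc2a3 varied widely. Slc2a3, a high-affinity glucose transporter, had 420.3 in CX3CR1high macrophages, 2321 in CX3CR1- cells, 1127 in CD11b+ cells and 788 in DCs. CX3CR1- cells were high and CX3CR1high macrophages low, 5.52-fold below them and 2.68-fold below CD11b+ cells. Slc2a1, the common glucose transporter and chosen here after its values were seen, lay between 1962 in DCs and 3447 in CD11b+ cells. Of the transport list, 3 of 11 genes with a ratio were higher in CX3CR1high macrophages than in CX3CR1- cells (Slc16a7, Slc37a2 and Slc2a8) and 1 was lower, and over DCs 2 of 9 were higher and 0 lower. Slc37a2, a sugar phosphate exchanger, was 5.27-fold above DCs, and the monocarboxylate carrier Slc16a7 was at least 3.03-fold above them. Over CD11b+ cells 1 of 10 was higher (Slc37a2, 2.82-fold) and 1 lower.

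Calls over DCs among the remaining glycolysis enzymes and regulators were near the share of all genes. Of 10 remaining glycolysis enzymes with a ratio, 2 were higher and 0 lower in CX3CR1high macrophages than in DCs, Galm (2.15-fold), which readies glucose for glycolysis, and the phosphofructokinase subunit Pfkm (at least 2.09-fold). Eno3, an enolase best known from muscle, was 3.37-fold above CD11b+ cells and 2.55-fold above CX3CR1- cells. Among 11 regulators with a ratio, 2 were higher and 0 lower over DCs, and 0 passed either way over CD11b+ cells or CX3CR1- cells. Pfkfb3, which makes an activator of phosphofructokinase, had 2053 in CX3CR1high macrophages, 1085 in CX3CR1- cells, 1043 in CD11b+ cells and 594 in DCs, highest in CX3CR1high macrophages and 3.45-fold over DCs. The oxygen sensor Egln2 was 2.27-fold over DCs. Of 7 remaining pentose phosphate enzymes with a ratio, Pgls, which acts just before Pgd, was 2.72-fold lower than in DCs, and H6pd, the form of the pathway's first enzyme in the endoplasmic reticulum, at least 2.39-fold higher.

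Most genes of the cell cycle list were lower in CX3CR1high macrophages than in DCs. Of 9 measured cell cycle genes, all with a ratio, 7 were at least 2-fold lower and 0 higher in CX3CR1high macrophages than in DCs, with a median log2 ratio of -1.57, where 10.2% of all genes were lower and 17.4% higher. Mki67, a marker of dividing cells, was highest in CX3CR1- cells (2492) and lay at 978 in CX3CR1high macrophages, 1098 in CD11b+ cells and 1299 in DCs. Most of the summed signal was Pcna, a DNA replication factor, and the other 8 summed to 1909 in CX3CR1high macrophages, 4322 in CX3CR1- cells, 1848 in CD11b+ cells and 4969 in DCs. Above the floor were 7 of the 9 in CX3CR1high macrophages, 8 in CX3CR1- cells, 4 in CD11b+ cells and 9 in DCs. The part of dividing cells in the enzyme signals was not tested.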

How the data were processed

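For every probe set the authors deposited 1 intensity, on a linear scale, from MAS5, a tool named per the submitters' processing notes; version and pooling of mice are not given in the sources used here. RNA was labelled with a 3' amplification kit, per the labels' protocols. The trimmed mean (2% from each end) was 500.3 on each array, so no further scaling was applied. Of 22690 probe sets, 20383 named 1 gene and were used, the 3 Gapdh control sets among them; 3 sets naming an enzyme and other genes were left out. All 29 measured symbols matched RefSeq's. Ratios, medians and counts were computed with pandas 2.3.3 and numpy 2.4.6 over 12394 genes; genes under the floor on both arrays have no ratio, and with 1 side under it the ratio is a bound ("at least"). The number of arrays limits the precision. The members and lists were chosen with earlier results of these data known. Named genes are all members, and list genes at 2-fold or more in a main comparison, at most 6 per list and direction.

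The counting procedure was tested on simulated data with noise of the SD between probe sets and planted changes of 4-fold or more. Of unchanged genes it called 0.102% for CX3CR1- cells over CD11b+ cells, the lowest share, and 4.55% over DCs, the highest. These shares follow from the SD put in and are not error rates of the arrays. Calls near 2-fold and variation between mice or cell sorts were not part of it. The alternatives were a floor at the 25th or 75th percentile, none, a pseudocount, quantile normalization, equal medians, the mean over probe sets, and leaving out shared types (_s_at, _x_at and _a_at).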

Additional observations from a re-analysis of the deposited data

How the results depend on the processing

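No paired analysis was possible because each population has 1 array. All 6 median log2 ratios of the enzymes moved by less than the spread between probe sets under all 8 alternatives. That spread is one of single probe sets and so a wide limit for a median of many enzymes. The shift of the median over DCs with equal medians, given above, lay within it. The 33 called ratios kept their sign under each alternative that measured them, 18 of them also at 2-fold or more. A floor at the 25th percentile or none could not change an enzyme's ratio, as every chosen set lay above the floor on all arrays. With the floor at the 75th percentile, 1 enzyme was higher in CX3CR1high macrophages than in CX3CR1- cells and 1 in CX3CR1- cells than in CD11b+ cells. With equal medians, 1 was higher in CX3CR1high macrophages than in DCs, and 12 were lower in CD11b+ cells than in DCs. With log2 signals averaged over each gene's probe sets, which includes sets under the floor, 0 were lower in CX3CR1high macrophages than in CX3CR1- cells, 1 was higher and 1 lower in CX3CR1- cells than in CD11b+ cells, and 5 enzymes were highest in CX3CR1high macrophages and 3 in CD11b+ cells. Leaving out shared probe set types kept only 14 enzymes, without Idh1, Pgd, Pgam1 and Idh2 among others, so counts fell by construction. In CX3CR1high macrophages 0 were higher and 3 lower than in DCs, and 0 higher than in CX3CR1- cells. In CX3CR1- cells 1 was higher than in DCs and 1 than in CD11b+ cells, and in CD11b+ cells 0 were higher and 4 lower than in DCs. Then 0 were highest in CX3CR1high macrophages, 2 in CD11b+ cells and 8 in DCs. Of the 33 calls, 15 were lost under at least 1 setting, including some far past the limit. With the floor at the 75th percentile, the log2 ratio of Aldoc was -0.45 both in CX3CR1high macrophages and in CD11b+ cells over DCs, that of Idh1 in CX3CR1- cells over DCs 0.45, and that of Idh2 in CX3CR1high macrophages over CX3CR1- cells 0.91, since 1 or both signals then lay under the floor. With the mean over probe sets, Mdh1 in CX3CR1- cells over DCs was -0.68, Aldoc in CX3CR1- cells over CD11b+ cells 0.85, Pgk1 -0.71 in CX3CR1- cells and -0.80 in CD11b+ cells over DCs, Idh3a -0.65 and Hk1 0.48 in CD11b+ cells over DCs, and Pfkp -0.84 and Tkt -0.89 in CX3CR1high macrophages over CX3CR1- cells. With equal medians, Pgd was 0.91 in CX3CR1high macrophages and Hk2 0.98 in CX3CR1- cells over DCs, and with quantile normalization Pgam1 was -0.99 in CX3CR1high macrophages over DCs.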

Other observations

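Further target genes of hypoxia-inducible factors, outside the glycolytic enzymes, were counted in the same way. Of 11 such genes with a ratio, 3 were higher and 0 lower in CX3CR1high macrophages than in DCs, with a median log2 ratio of 0.48, where 17.4% of all genes were higher and 10.2% lower, so the counts are near this background. Ddit4, an inhibitor of mTOR signalling, had 1342 in CX3CR1high macrophages, 1812 in CX3CR1- cells, 1112 in CD11b+ cells and 299.9 in DCs. Bnip3, a mitophagy receptor, had 476 in CX3CR1high macrophages, 170.2 in CX3CR1- cells, 405 in CD11b+ cells and 153 in DCs. P4ha1, a collagen prolyl hydroxylase subunit, was 2.55-fold higher in CX3CR1high macrophages than in DCs. The transcript of Hif1a itself, chosen after its values were seen, lay between 4366 in DCs and 7709 in CD11b+ cells. Over CX3CR1- cells 2 of 11 targets were higher (Bnip3 and P4ha1) and 0 lower, and over CD11b+ cells 0 of 11 passed either way. All values rest on 1 array per population, and the part of hypoxia-inducible factors in the enzyme signals was not tested.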
